A study of Mus musculus with 4 samples.

Results

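Neutrophils pack their antimicrobial proteins into granules that are made in sequence as the cell matures. Primary granules form in promyelocytes, secondary (specific) granules in myelocytes, and tertiary (gelatinase) granules later still, and the granule a protein enters follows from when its gene is transcribed. The 10 genes described here belong to the late part of that sequence. Ltf, Camp, Ngp, Lcn2 and Mmp8 encode secondary granule proteins and Mmp9 the gelatinase of tertiary granules. S100a8 and S100a9 encode the cytosolic subunits of calprotectin, and Retnlg (resistin-like gamma) and Mcemp1 (a membrane protein) are other genes of maturing neutrophils. All 10 were found by symbol among the 16673 genes of the deposited table, and all 10 passed the filter on low values. They had been put together with their values in this comparison in view, Mmp9 because it moved apart from the rest, so their differences between genotypes are given as a description, with no test.

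RNA was sequenced from lineage-negative (Lin–) bone marrow cells of 2-month-old mice, what remains of the marrow once mature blood lineages have been depleted. Both groups carried floxed Tet3 alleles, the gene of an enzyme that oxidises 5-methylcytosine in DNA. The 2 libraries labelled control came from Tet3F/F mice and the 2 labelled cKO from Tie2+/cre; Tet3F/F mice, in which Cre is driven by Tie2, a gene of endothelial and early blood cells. The sources used here do not name the antibodies of the depletion. The question was what TET3 does in gene regulation of these cells. Levels are DESeq2 normalized counts, that is, gene read counts divided by 1 size factor per library. Differences are given as cKO minus control in log2(normalized count + 1), a scale on which low genes change by less than their true ratio.

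The libraries held 28845037 to 46673855 reads counted to genes. Replicates of a group differed by more than counting noise. Tet3 itself had 5056 and 6593 normalized counts under the control label and 6400 and 5084 under the cKO label (log2 fold change -0.02, SE 0.22), so its total over the gene was not lower where Cre is present. The sources used here do not say which exons are floxed, and a gene total cannot show their loss, so the labels are unchecked and groups are named by label throughout. The groups also differed in the sex of the mice. Xist had 5.54 and 9.57 normalized counts under the control label and 87442 and 48951 under the cKO label, where the 4 Y genes examined had 0 reads. Genotype and sex therefore cannot be told apart in any value below. Control replicate 2 stood apart, with 8.16% of its reads from the 13 mitochondrial protein genes against 0.989% to 1.26% in the other libraries. Progenitor markers were abundant (Kit 10915 and 11537 normalized counts under the control label), and so were primary granule genes. Of the genes of maturing neutrophils, Csf3r, the receptor for granulocyte colony-stimulating factor, had 3643 to 5788 normalized counts and Itgam 692 to 1706. Cxcr2 had 188 to 409 and Fpr1, a formyl peptide receptor, 0 to 25.3. These levels do not measure how many mature neutrophils were present. Ly6g was not analysed here.

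The sequence just before the start site of these genes is shown because secondary granule genes are known targets of C/EBP factors, above all C/EBP epsilon. RefSeq start sites on GRCm38.p6 were matched for 9 of the 10 genes. That is another build than the mm39 of the reads, and the sequences are shown as reference sequence only. Each line gives the 250 bases before the start, 5′ to 3′, with the letters TTGCNNAA or its reverse complement TTNNGCAA, a C/EBP site, in capitals.

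Ltf, chr9:111019042-111019291, plus strand: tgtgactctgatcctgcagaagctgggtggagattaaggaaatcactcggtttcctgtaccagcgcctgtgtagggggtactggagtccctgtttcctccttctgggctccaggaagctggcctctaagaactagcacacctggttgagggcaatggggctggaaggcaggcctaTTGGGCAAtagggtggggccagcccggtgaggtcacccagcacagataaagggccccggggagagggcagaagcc
Ngp, chr9:110419558-110419807, plus strand: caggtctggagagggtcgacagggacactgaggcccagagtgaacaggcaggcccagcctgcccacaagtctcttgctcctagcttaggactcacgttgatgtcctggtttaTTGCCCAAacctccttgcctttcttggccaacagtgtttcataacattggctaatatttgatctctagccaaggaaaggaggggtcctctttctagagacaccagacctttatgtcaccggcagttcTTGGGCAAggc
Mmp8, chr9:7558179-7558428, plus strand: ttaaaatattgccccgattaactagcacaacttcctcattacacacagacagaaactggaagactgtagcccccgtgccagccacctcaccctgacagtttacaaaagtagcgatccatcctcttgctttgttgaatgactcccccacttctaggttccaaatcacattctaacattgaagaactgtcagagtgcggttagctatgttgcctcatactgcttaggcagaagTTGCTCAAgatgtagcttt
Camp, chr9:109849457-109849706, minus strand: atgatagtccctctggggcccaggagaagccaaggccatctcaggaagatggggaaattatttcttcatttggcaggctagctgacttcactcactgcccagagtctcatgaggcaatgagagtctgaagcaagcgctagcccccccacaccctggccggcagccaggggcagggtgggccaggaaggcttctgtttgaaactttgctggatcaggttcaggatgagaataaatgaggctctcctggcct
Retnlg, chr16:48872358-48872607, plus strand: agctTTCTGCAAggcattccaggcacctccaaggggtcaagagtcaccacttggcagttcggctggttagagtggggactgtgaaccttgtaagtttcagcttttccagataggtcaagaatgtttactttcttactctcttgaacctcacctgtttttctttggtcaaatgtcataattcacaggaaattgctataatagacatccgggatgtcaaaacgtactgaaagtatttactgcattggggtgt

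Of the 9 windows, 6 held TTGCNNAA on either strand (Ltf, Ngp, Mmp8, Lcn2, S100a9 and Retnlg), against 9.57% of all 32841 RefSeq windows of the same length. Ltf had 1 such site with its first base at -75 from the start, Mmp8 had 1 at -19 and Ngp had 2, at -138 and -11. In Lcn2, S100a9 and Retnlg the first base lay at -216, -236 and -246. The windows of Camp, S100a8 and Mcemp1 held none. GAGGAA, the core bound by PU.1 and other ETS factors, was in 4 of 9 windows against 23.3% of all, and AAATCA, the GFI1 core, in 2 of 9 against 12.4%. TATAAA was in 1 of 9, that of S100a8, against 12.4%, and TGANTCA, the AP-1 site, in 0 of 9 against 6.75%. These motifs were chosen from general knowledge of the factors, were searched on both strands, and their hits did not overlap each other in these 9 windows. A match says only that the letters are there.

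Together the 10 genes took 0.0320% of the reads in control replicate 1 (Wilson 95% interval 0.0314 to 0.0325) and 0.0133% in control replicate 2 (0.0130 to 0.0137). In cKO replicates 1 and 2 they took 0.0101% (0.00975 to 0.0105) and 0.0233% (0.0227 to 0.0238). These intervals cover counting error only. The libraries of either group thus differed by more than the group means did. In bulk RNA, fewer cells of a type and less RNA per cell cannot be told apart.

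Ltf encodes lactoferrin, which binds iron. It had 502 and 33.5 normalized counts in control replicates 1 and 2 and 39.7 and 54.0 in cKO replicates 1 and 2. Only control replicate 1 was high, 15.0-fold above control replicate 2, and the groups overlapped. The log2 fold change was -1.48 (SE 1.10), and without control replicate 1 it was 0.46. Camp encodes cathelicidin, an antimicrobial peptide precursor. It had 513 and 179 normalized counts under the control label and 38.5 and 161 under the cKO label. The groups did not overlap, but control replicate 2 and cKO replicate 2 lay close together, and the log2 fold change of -1.93 (SE 0.74) was -0.91 without cKO replicate 1.

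Ngp, the neutrophilic granule protein, is related to the cystatins and cathelicidins. It had 931 and 100.5 normalized counts in control replicates 1 and 2 and 105 and 377 in cKO replicates 1 and 2. Control replicate 2 and cKO replicate 1 were alike, and the groups overlapped. The log2 fold change was -0.62 (SE 0.9997). It was 0.98 without control replicate 1 and 0.30 without cKO replicate 1. Camp, Ngp and Ltf lie in that order on chromosome 9 in RefSeq's GRCm38.p6 annotation, with 8 protein-coding genes between the first pair and 20 between the second.

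Lcn2 encodes lipocalin 2, which captures bacterial iron carriers. It had 740.5 and 294 normalized counts under the control label and 195 and 301 under the cKO label, and its log2 fold change was -0.94 (SE 0.47). Mmp8, the neutrophil collagenase, had 1490.1 and 548 under the control label and 238 and 839 under the cKO label, a log2 fold change of -1.01 (SE 0.64). For both genes control replicate 1 was the highest library and cKO replicate 1 the lowest, and the groups overlapped. Without cKO replicate 1 the value for Mmp8 was -0.11, and without control replicate 1 the value for Lcn2 was -0.28.

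S100a8 had 3263 and 1241 normalized counts under the control label and 1230.4 and 2363 under the cKO label. S100a9 had 2419 and 924 against 593 and 1599. Their log2 fold changes were -0.24 (SE 0.47) and -0.62 (SE 0.55), with overlapping groups. Both values changed sign without control replicate 1 (0.46 and 0.08) and without cKO replicate 1 (0.23 and 0.10). The proteins work as a pair, and the genes are neighbours on chromosome 3. S100a8 gave 57.4% of the reads of the pair in control replicate 1 (Wilson 95% interval 56.2 to 58.7), 57.3% in control replicate 2 (55.4 to 59.2) and 59.6% in cKO replicate 2 (58.0 to 61.3). It gave 67.5% in cKO replicate 1 (65.1 to 69.8), where S100a9 was lowest. The intervals of the first 3 libraries overlapped, and that of cKO replicate 1 lay above them. Reads depend on transcript length, so this share compares libraries and is no molar ratio.

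Mcemp1 differed from the genes above in that its control libraries were alike. It had 1613 and 1559 normalized counts under the control label and 461 and 850.1 under the cKO label. The groups did not overlap, and the log2 fold change was -1.34 (SE 0.31), from -1.78 to -0.90 with each library left out. Mmp9 lay the other way. It had 77.6 and 73.4 normalized counts under the control label (84 and 92 reads) and 488 and 353 under the cKO label (418 and 307 reads). The 2 cKO-labelled libraries were the 2 highest, and their mean was 5.57 times that of the control-labelled ones. The log2 fold change was 2.44 (SE 0.36), from 2.21 to 2.68 with each library left out.

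Retnlg followed neither course. It had 14.8 and 15.95 normalized counts under the control label, 16.3 in cKO replicate 1 and 1129 in cKO replicate 2, from 16, 20, 14 and 983 reads. A single library was high, 69.1-fold above the next. The log2 fold change of 3.10 (SE 1.65) thus rested on cKO replicate 2, and without that library it was 0.085. The nominal lack of overlap between the groups came from cKO replicate 1 lying at 16.3 against 15.95, which is less than counting error at 14 and 20 reads.

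**Figure D1:**
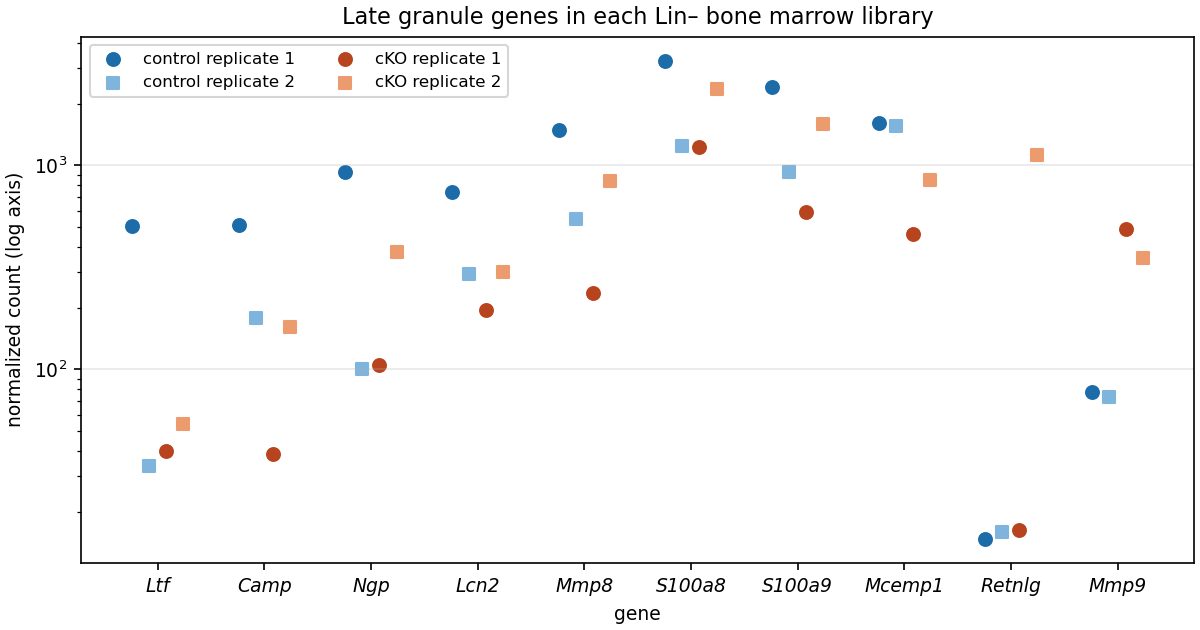
Normalized count (log axis) of each of the 10 genes in the 4 libraries, 1 point per library, blue for control and orange for cKO, circles for replicate 1 and squares for replicate 2. Control replicate 1 is the highest point for 8 genes, Mmp9 is higher in both cKO libraries, and Retnlg is high only in cKO replicate 2, at 1129.

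None of the 10 genes passed limma at an adjusted p under 0.05 over all genes, where 0.0723% of the 16598 genes tested passed (0.0301% higher and 0.0422% lower). Those that passed included Xist and the Y genes Ddx3y, Eif2s3y, Kdm5d and Uty. At an unadjusted p under 0.05 there were 3 of 10, against 6.10% of all genes. edgeR also called 0 of 10 (0.0723% of all genes), and DESeq2 called Mmp9 and Mcemp1, 2 of 10, against 0.702% of 15954 genes (0.464% higher, as Mmp9 was, and 0.238% lower, as Mcemp1 was). The groups did not overlap for 4 of 10 genes, 2 higher and 2 lower in the libraries labelled cKO, against 38.7% of all genes tested (19.2% higher and 19.5% lower). Because the genes were chosen with these values known, nothing is read from these counts.

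The median log2 fold change was -0.78 over the 10 genes and -0.94 over the 9 other than Mmp9, against 0.01 over all genes tested. These medians moved with single libraries. Without control replicate 1 they were 0.27 and 0.08, and without cKO replicate 1 they were -0.0055 and -0.11. Without control replicate 2 and without cKO replicate 2 in turn, the median of all 10 was -1.49 and -1.43. The difference between the 2 control libraries exceeded the difference between the groups for 6 of 10 genes, and so did the difference between the 2 cKO libraries.

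The order of the libraries was shared. For 8 of 10 genes control replicate 1 lay above control replicate 2 and cKO replicate 2 above cKO replicate 1, an order that 24.5% of all genes tested had. The exceptions were Mmp9, with cKO replicate 1 on top, and Retnlg. Among these 8 genes control replicate 1 lay 1.03-fold (Mcemp1) to 15.0-fold (Ltf) above control replicate 2, with a median of 2.67. In the libraries labelled cKO, replicate 2 lay 1.36-fold (Ltf) to 4.18-fold (Camp) above replicate 1, with a median of 2.31. On a scale centred per gene, the median profile of the 9 genes other than Mmp9 was 1.14 in control replicate 1, -0.38 in control replicate 2, -1.11 in cKO replicate 1 and 0.35 in cKO replicate 2.

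**Figure D2:**
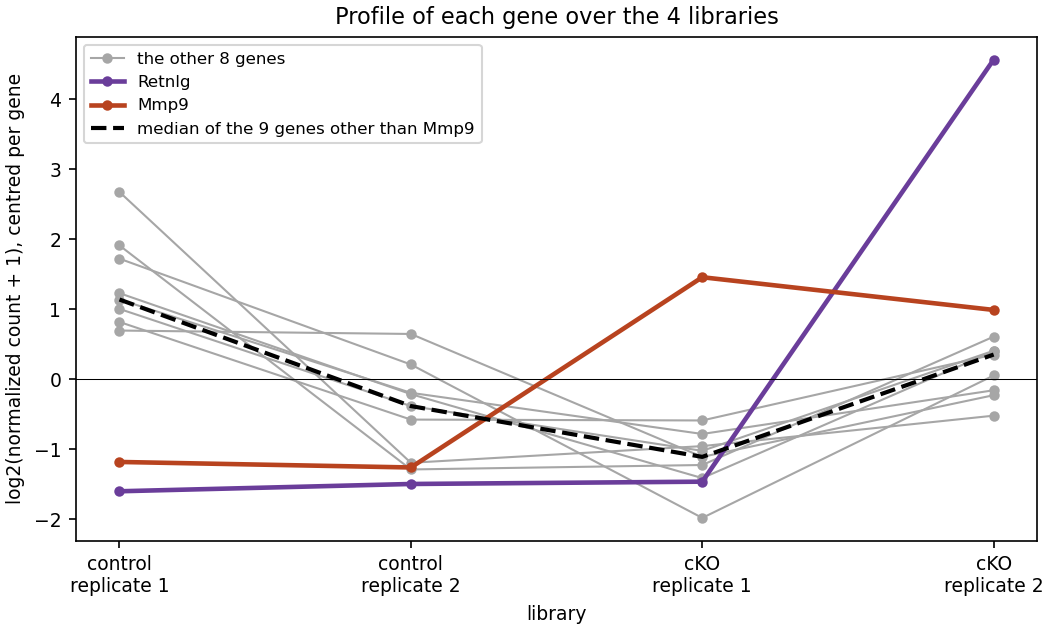
Profile of each of the 10 genes over the 4 libraries, as log2(normalized count + 1) minus the gene's own mean; lines only join the points of 1 gene. Grey lines are the 8 genes that share an order within both groups, and the dashed median runs from 1.14 in control replicate 1 to -1.11 in cKO replicate 1. Mmp9 (orange) is high in both cKO libraries and Retnlg (purple) in cKO replicate 2 alone.

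The genes whose profile over the 4 libraries was nearest to that median were mostly genes of myeloid cells. Of 11000 genes with a mean of at least 100, other than members and predicted genes, Lyz2, which encodes lysozyme, was nearest, at a Euclidean distance of 0.35 on the centred log2 scale. It had 106307 and 51927 normalized counts under the control label and 26639 and 69953 under the cKO label. Arhgef37, Pilra (an inhibitory receptor of myeloid cells), Slc15a3 and Tlr13 (a sensor of bacterial RNA) followed at 0.36 to 0.45. Each of these 5 had control replicate 1 highest and cKO replicate 1 lowest, as has the profile for which they were picked. Their log2 fold changes ran from -1.06 to -0.78, and none passed limma (Benjamini-Hochberg adjusted p 0.76 for each).

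The genes nearest to Mmp9 were lymphocyte genes. Gimap4, a GTPase of lymphocytes, lay at a distance of 0.21 and had 416 and 405 normalized counts under the control label and 2370 and 1615 under the cKO label. Klrb1c, a receptor of natural killer (NK) cells, lay at 0.22 (98.8 and 112 against 625 and 454). Art2b, an ectoenzyme of T cells, lay at 0.25 and the immunoglobulin kappa segment Igkv6-15 at 0.44. Only 4 of the 11000 genes lay within 0.5 of Mmp9. Gimap4 and Igkv6-15 passed limma (Benjamini-Hochberg adjusted p = 0.045 and 0.041; log2 fold change 2.25, SE 0.25, and 2.74, SE 0.30, higher in both cKO-labelled libraries). These genes were picked for a profile like that of Mmp9, so the choice itself favours a difference between the groups. Their p-values are therefore no separate result. Likeness over 4 libraries is a description and says nothing of shared control.

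**Figure D3:**
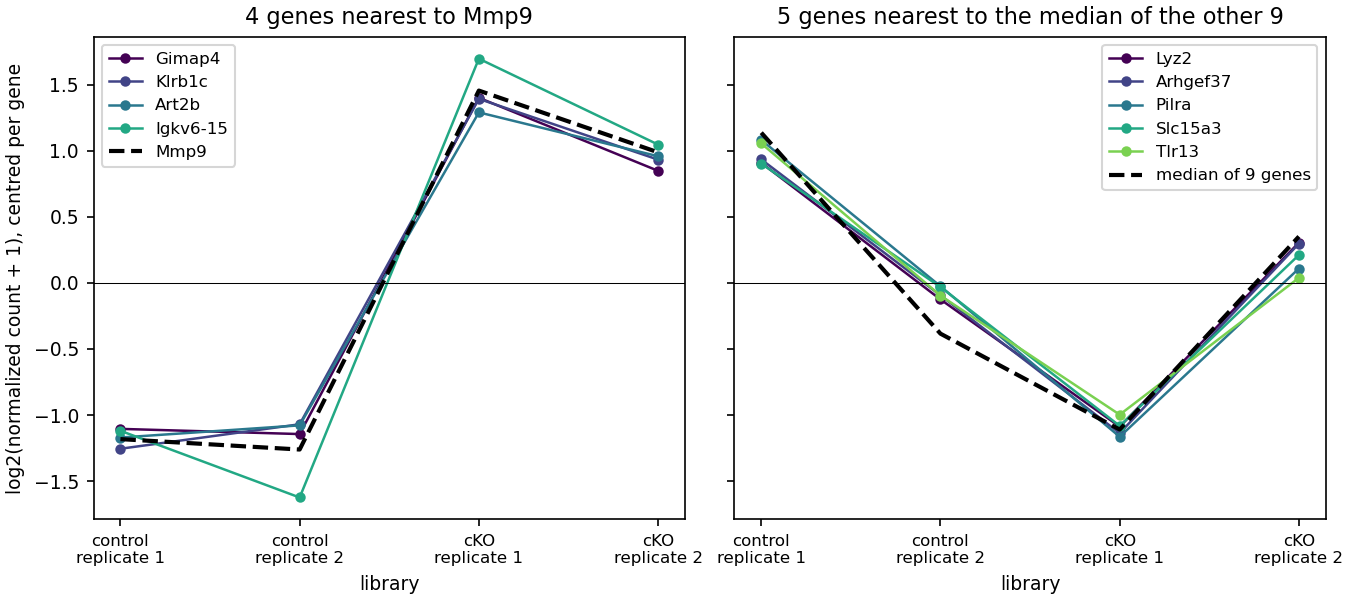
Centred log2(normalized count + 1) over the 4 libraries for the 4 genes nearest to Mmp9 (left) and the 5 nearest to the median of the other 9 genes (right), with the reference profile dashed; lines only join the points of 1 gene. The genes at left are high in both cKO libraries, and those at right run highest in control replicate 1 and lowest in cKO replicate 1.

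The T and NK cell markers were examined beside Mmp9. Of the 10 genes on that list, 8 had both libraries labelled cKO above both labelled control, against 19.2% of all genes tested. The median log2 fold change was 1.68 (1.16 to 2.21 with each library left out), and 0 passed limma or edgeR. At an unadjusted limma p under 0.05 there were 7, against 6.1% of all genes tested. DESeq2 called 4 higher, against 0.464% of the 15954 genes it tested. The summed level of the list was 6808 to 9716 under the control label and 10986 to 11047 under the cKO label, and no marker was at 0. Much of that sum was Nkg7 (8474 and 4671 against 4975 and 6616; log2 fold change -0.13, SE 0.30). Without it the other 9 genes summed to 1242 and 2138 under the control label and 6072 and 4370.2 under the cKO label. Cd3g had 48.9 and 140 normalized counts under the control label and 523 and 420.5 under the cKO label. The part of these cells in the level of Mmp9 was not tested. Osteoclasts also make Mmp9. Of 10 osteoclast markers 5 were in the table, with a summed level of 4454 to 4503 under the control label and 4698 to 5781 under the cKO label. Much of that sum was Nfatc1 and Itgb3, so its range mostly follows these 2 genes. The median log2 fold change of the 5 was 0.39, with 3 above 0 and 2 below. Itgb3, the integrin beta 3 (1329 and 1107 against 1861 and 1623), and Nfatc1, the transcription factor of osteoclast formation (2490.0 and 1763 against 2990 and 2513), were higher in both cKO-labelled libraries. Tnfrsf11a, the receptor RANK (72.0 and 20.7 against 70.0 and 74.7), Acp5, an acid phosphatase (596 and 1456 against 830.0 and 453), and Ctsk, the protease cathepsin K (15.7 and 107 against 30.4 and 34.5), overlapped between the groups. None of the 5 passed limma, edgeR or DESeq2, and Itgb3 alone had an unadjusted limma p under 0.05, against 6.1% of all genes tested. The part of osteoclast-lineage cells in the level of Mmp9 was not tested. Calcr, Oscar, Dcstamp, Ocstamp and Atp6v0d2 were not analysed here.

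A list of other metalloproteases, their inhibitors and 2 partners of Mmp9 (Cd44 and Lgals3) had 10 of its 13 genes measured. Mmp2, the other gelatinase, had 179 and 104 normalized counts under the control label and 351 and 232 under the cKO label, with a log2 fold change of 1.06 (SE 0.41) that did not pass. Mmp14, a membrane-bound metalloprotease, had 393 and 1199 against 438 and 652.5. The median of the 10 was 0.22 (0.20 to 0.40 with each library left out), and 0 passed limma. At an unadjusted limma p under 0.05 there were 3, against 6.1% of all genes tested. Of these, Mmp2 and Adam17, a sheddase, lay above 0 and Lgals3, galectin 3, below (-0.93, SE 0.28). Without the 2 partners the median of the 8 others was 0.42, with 7 above 0. edgeR and DESeq2 called none of the 10.

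Other late granule genes outside the 10 had the library order of the grey lines. Of 18 measured, 15 had control replicate 1 above control replicate 2 and cKO replicate 2 above cKO replicate 1, and 15 had a log2 fold change below 0, with a median of -0.45. Cd177, a surface protein of secondary granules, had 1807 and 783 normalized counts under the control label and 280.2 and 1083 under the cKO label. Chil3, a chitinase-like protein (14415 and 7131 against 4522 and 7014), and Slpi, a protease inhibitor (3397 and 3640 against 1815 and 2687), had groups that did not overlap, the only 2 of the 18, both lower. Of all genes tested, 19.5% were lower without overlap. Hp, haptoglobin (14676 and 7583 against 5599 and 9464), and Itgam, the integrin alpha M (1706 and 1423 against 692 and 1564), overlapped. None passed limma, edgeR or DESeq2, and 2 had an unadjusted limma p under 0.05, against 6.1% of all genes tested. Leaving out control replicate 2 gave a median of -0.84, and leaving out cKO replicate 1 gave -0.01.

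Primary granule genes shared the order within the groups. All 10 listed had control replicate 1 above control replicate 2 and cKO replicate 2 above cKO replicate 1, and 5 lay above 0 and 5 below, with a median log2 fold change of -0.08. Mpo, myeloperoxidase, had 343617 and 82908 normalized counts under the control label and 247093 and 263946 under the cKO label (log2 fold change 0.60, SE 0.62). Elane, neutrophil elastase, had 103931 and 23031 against 49102 and 77725 (0.34, SE 0.63). The difference between the late and the primary genes was not tested.

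**Figure D4:**
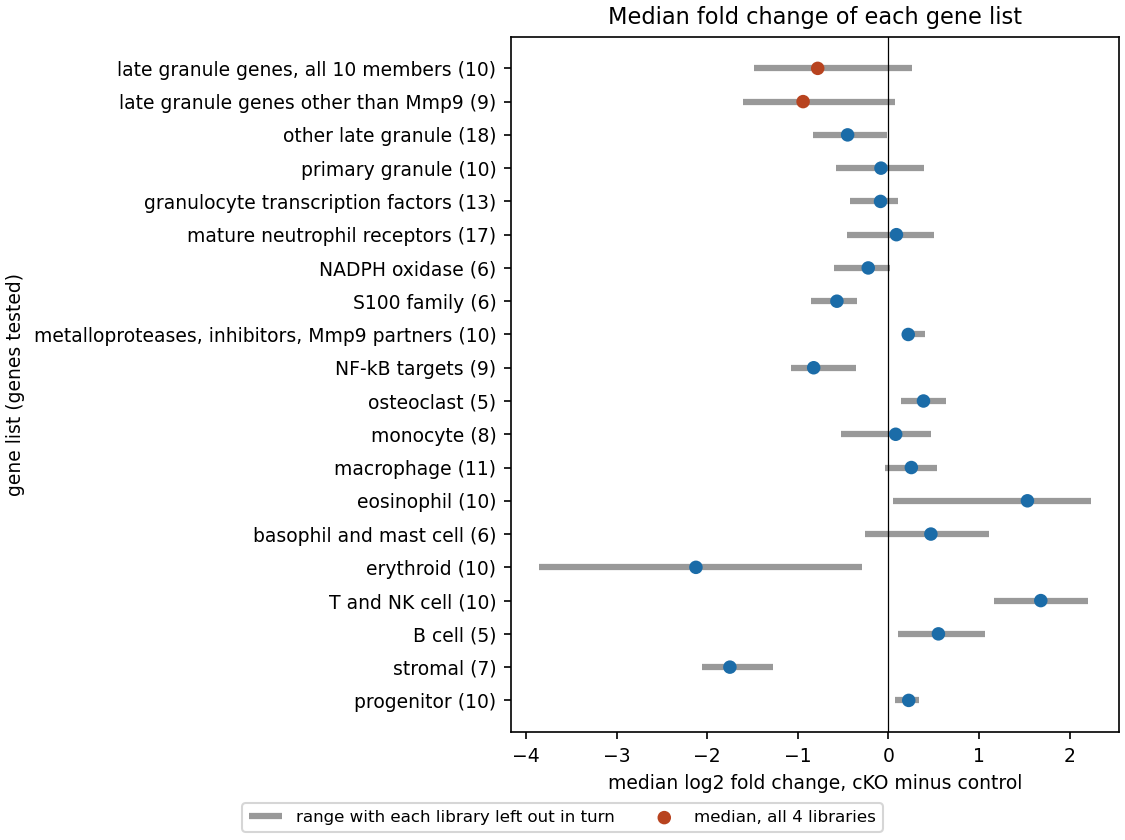
Median log2 fold change (cKO minus control) of each gene list as a point, orange for the genes described here and blue for the others, with the number of genes tested; grey bars span the medians when 1 library at a time is dropped. The late granule medians of -0.78 and -0.94 have bars that cross 0, while the T and NK cell bar runs from 1.16 to 2.21.

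Among the transcription factors behind granule genes, Cebpe, the factor needed for secondary granules, had 1713 and 664 normalized counts under the control label and 912 and 1289 under the cKO label, or 0.02 as log2 fold change (SE 0.43; 95% limits -0.97 and 1.02). Cebpa, needed for granulocyte commitment, had 0.13 (SE 0.34), Spi1, the gene of PU.1, -0.14 (SE 0.32), and Gfi1, a transcriptional repressor that acts in granulocyte development, -0.46 (SE 0.23). Cebpb, the C/EBP factor of emergency granulopoiesis, had 3079 and 4045 against 1166 and 2009 (-1.20, SE 0.29), and Klf4, a monocyte factor, -0.63 (SE 0.21). Lef1, which acts in granulocyte and lymphocyte precursors, had 40.6 and 63.0 against 202 and 180.4 (1.89, SE 0.44). None of the 13 passed limma, and edgeR called none. At an unadjusted limma p under 0.05 there were 4, against 6.1% of all genes tested. DESeq2 called Cebpb and Lef1, against 0.702% of the 15954 genes it tested.

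Receptors of maturing neutrophils had a median log2 fold change of 0.09 over 17 genes, from -0.46 to 0.50 with each library left out. Cxcr2, the chemokine receptor of mature neutrophils, had 263 and 188 normalized counts under the control label and 409 and 314 under the cKO label. Between the cKO-labelled libraries, where Retnlg differed 69.1-fold, 12 of the 17 receptor genes were higher in replicate 2 than in replicate 1. Among them Fpr2, a formyl peptide receptor, went from 21.0 to 82.7 normalized counts, Siglece, an inhibitory receptor, from 224 to 354, and Csf3r was 1.11-fold higher, while Cxcr2 was at 0.768 times its level in replicate 1. The NADPH oxidase genes, which make the respiratory burst, had a median of -0.22 over 6 genes, and all 6 shared the order within both groups. Cyba had 8402 and 6894 against 3297 and 5843 (-0.79, SE 0.29) and Cybb 11409 and 4305 against 6096 and 7863 (-0.02, SE 0.42). None of these receptor and oxidase genes passed limma, edgeR or DESeq2. Only 1 of them, Cyba, had an unadjusted limma p under 0.05, against 6.1% of all genes tested.

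Relatives and neighbours of the 10 genes were measured as well. Of 6 other S100 genes measured, 6 lay below 0, led by S100a4 (2004 and 3145 against 769 and 1153, log2 fold change -1.41, SE 0.29) and S100a6 (2558 and 4153 against 1082 and 1800.2, -1.22, SE 0.32). In both, control replicate 2 was the highest library, unlike in S100a8 and S100a9. None passed limma or edgeR. At an unadjusted limma p under 0.05 there were 2, against 6.1% of all genes tested. DESeq2 called S100a4 lower, as it did 0.238% of the 15954 genes it tested. Retn, the other resistin family gene measured, had 5.54 and 20.7 normalized counts under the control label, 14.0 in cKO replicate 1 and 0 in cKO replicate 2, the library where Retnlg was high. The protein-coding genes that flank the 10 on either side in RefSeq's order gave 13 tested genes, of which 0 passed limma. Only 1 of the 13, Nme6 beside Camp, shared the order within both groups. Dzip3, beside Retnlg, had 970.4 and 1009 against 1802 and 1408, and Zfp335, beside Mmp9, 901 and 829.5 against 1155 and 769.

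Markers of other cells also varied between the libraries. The eosinophil list was lowest in control replicate 2, with a summed level of 4194 to 22766 normalized counts under the control label and 14088 to 26326 under the cKO label, and its median of 1.54 was 0.055 without control replicate 2. The monocyte list summed to 64825 to 140367 and 83757 to 106453, with 6 of 8 genes in the order of the late granule genes and a median of 0.08. The immediate early genes, which include targets of cell isolation stress, had 9 of 10 genes lower in both cKO-labelled libraries (median -1.53), against 19.5% of all genes tested. The receptors of the granule proteins themselves had a median of -0.52 over 5 genes, with 2 above 0 and 3 below. Ager, a receptor of calprotectin (188 and 313 against 120 and 141), and Lrp1 (5656 and 2863 against 2495 and 3146) lay below 0. Slc22a17 was higher in both cKO-labelled libraries (201 and 214 against 297 and 239). None of the genes of these 4 lists passed limma or edgeR. DESeq2 called 8 immediate early genes lower and 1 monocyte list gene, S100a4, lower, against 0.238% of the 15954 genes it tested. The part of these differences in the levels of the late granule genes was not tested.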

How the data were processed

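Per the submitters' processing notes, the tools were STAR 2.7.9a, Trim Galore 0.6.7, SAMtools, featureCounts and DESeq2, with mm39. Settings, annotation and strandedness were not stated in the sources used here. The authors deposited a signal per gene, the DESeq2 normalized counts of 16673 genes. Its control columns are headed WT and were matched to the control samples by group and number. In each library 100% of values were whole multiples of 1 read (within 0.1 read), so reads were recovered. All genes had at least 41 reads over the 4 libraries.

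Genes averaging 10 or more (16598) were fitted in limma 3.58.1 under R 4.3.3 as log2(normalized count + 1), with trended empirical Bayes variances and two-sided tests, and p-values were adjusted by Benjamini-Hochberg (threshold 0.05). With 2 libraries against 2, exact permutation has a smallest p of 0.33. limma called 5 genes higher and 7 lower, with sex genes among both. edgeR 4.0.16 (quasi-likelihood, TMM) on the recovered reads called 12 genes and DESeq2 1.42.0 called 112. The series' design gives 2 mice per genotype and does not tie each library to 1 mouse, so p-values measure only the spread between these libraries, which may be technical.

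The members and the 22 context lists were chosen with earlier results of these data known. Of the lists' 220 genes, 197 were tested. Named genes are the members, any list gene called or up to 3 per list with the smallest p, the 5 genes nearest to Mmp9 and to the median of the others, and, where tested, Cebpe, Cebpa, Gfi1, Spi1, Mpo, Elane, Csf3r, Cxcr2, Ly6g, Itgam, Timp1, Mmp2, Mmp14, Acp5, Ctsk, Calcr, Chil3, Hp, Cd177 and Cybb. Many genes under this rule enter the text only through their list's counts, and 1 of those nearest to Mmp9 is not reported here. Kit, Cd3g, Nkg7, Tnfrsf11a, Fpr2, the flanking genes and the genes nearest to Retnlg fall outside that rule and were chosen with their values in view. Other settings tried were pseudocounts of 0.5 and 10, no filter, a mean of at least 50, TMM, quantile normalization, no trend, a replicate block, each library left out, edgeR and DESeq2. The steps were tested on simulated counts that gave every gene the same dispersion. That does not show how the tests do with replicates as far apart as these.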

Additional observations from a re-analysis of the deposited data

How the results depend on the processing

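Of 16598 genes, 5 were higher and 7 lower in the libraries labelled cKO. Xist was among those higher, and the Y genes Ddx3y, Eif2s3y, Kdm5d and Uty were among those lower. The higher count was 2 with a mean of at least 50, with quantile normalization and without a variance trend, and 3 with the replicate number as a block. DESeq2 called 74 higher and 38 lower. Leaving out 1 library at a time, the higher count ran from 4 to 231 and the lower count from 8 to 161, the largest without control replicate 1. The median over the 10 late granule genes ran from -1.49 to 0.27 when 1 library was dropped, and from -0.99 to -0.76 under the other alternatives, and that over the 9 other than Mmp9 from -1.61 to 0.08 and from -1.06 to -0.92. When 1 library was dropped, list medians ran from -0.42 to 0.11 for granulocyte transcription factors, -0.46 to 0.50 for neutrophil receptors, -1.08 to -0.36 for NF-kB targets and -0.52 to 0.48 for monocytes. They ran from 0.055 to 2.24 for eosinophils, -3.86 to -0.29 for erythroid genes, -2.06 to -1.27 for stromal genes and -3.06 to 0.022 for mitochondrial protein genes. Gimap4 lost its call under 6 alternatives and Igkv6-15 under 3, with the log2 fold change at 1.97 or more. The cause was not tested.

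The replicate number was not used to pair the samples in the main fit. Deviations from the group means in same-numbered libraries had a correlation of -0.07 over genes. With 2 libraries per group, that value cannot settle whether same-numbered libraries were paired. The block left the members' log2 fold changes as they were, since each group holds both numbers. Depth limited Retnlg, Ltf, Mmp9 and Camp most, with 14 to 84 reads in their lowest libraries.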

Other observations

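Retnlg was the only gene of the table with at least 100 normalized counts in cKO replicate 2 and at least 20-fold more there than in every other library. The same search, made after its values were seen, found 0 genes for control replicate 1, 3 for control replicate 2 and 1 for cKO replicate 1. The 5 genes nearest to the profile of Retnlg among the 11000 compared were immunoglobulin variable segments, all far from it. The nearest, Igkv2-112, lay at a distance of 2.77 (25.9 and 6.38 normalized counts under the control label, 53.7 and 340.1 under the cKO label), and 0 genes lay within 0.5.

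The looser C/EBP letters TTNNGNAA, which include every TTGCNNAA site, were in 7 of the 9 promoter windows, S100a8 being the one added, against 36.9% of all windows of that length.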
